A study of Homo sapiens with 6 samples.

Results

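Small nucleolar RNAs, small Cajal body RNAs and the U RNAs of the spliceosome were examined in RNA recovered with an antibody to AGO2, the Argonaute protein that holds microRNAs. Members were chosen by name alone: a probe set counted when its only gene symbol began with SNORD, SNORA, SCARNA, RNU followed by a digit, or RNVU1. That gave 215 genes of the 18417 measured, of which 115 were C/D box RNAs (SNORD), 61 were H/ACA box RNAs (SNORA), 16 were small Cajal body RNAs (SCARNA) and 23 were U RNAs (RNU and RNVU1). PC3 cells, a human prostate cancer line that grows without androgen, had received either miR-205 as a mimic or a negative control mimic, with 3 arrays for each, and the series was made to find miR-205 targets. The design text calls the arrays of each group biological triplicates, so the p-values measure the spread among these 6 arrays of 1 cell line. All 6 arrays were immunoprecipitates, and input RNA was not analysed here, so more RNA on AGO2 and more RNA in the lysate cannot be told apart.

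C/D box RNAs guide ribose methylation and H/ACA box RNAs guide pseudouridine formation in ribosomal and spliceosomal RNA, each inside a particle of core proteins. Most human members of both classes are cut from introns of host genes, many of which encode ribosomal or translation proteins. Small Cajal body RNAs guide the same modifications on the spliceosomal RNAs, and the U RNAs form the catalytic particles of the major and minor spliceosomes. Some small nucleolar RNAs are known to be trimmed to fragments that associate with Argonaute proteins. The arrays used a whole-transcript labelling protocol, so a value does not separate a mature small RNA from its precursor or a fragment.

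The transfected microRNA is shown because every comparison below is mimic against control mimic. The labels do not name the arm, and the arm below is the one usually meant by miR-205 (RefSeq, GRCh38.p14, chr1:209432166-209432187, plus strand), with the seed, bases 2 to 8, in capitals.
hsa-miR-205-5p: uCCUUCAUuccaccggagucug

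The PC3 label was set against marker lists. The 5 epithelial markers CDH1, EPCAM, KRT8, KRT18 and KRT19 averaged 10.56, 10.62 and 10.58 in the miR-205 arrays and 9.42, 9.51 and 9.47 in the control arrays (log2 intensity), and 4 of the 5 rose. The 5 leukocyte markers averaged 5.03, 4.98 and 4.90 in the miR-205 arrays and 5.09, 5.01 and 5.002 in the control arrays. Of these leukocyte markers, 4 lay below 6.04, the 95th percentile of 341 olfactory receptor genes, which served as the limit for dim signal. Of the 5 fibroblast markers, DCN and LUM were below that limit, and COL1A1, COL3A1 and COL1A2 were above it, with means of 8.99, 6.94 and 6.64. LUM rose by 0.36 at dim signal (limma adjusted p = 0.0459), and the other 4 did not pass.

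Negative control replicate 2 stood apart from the other control arrays. Its score on the second principal component was -18.1, against 7.68 and 5.41 in control replicates 1 and 3. A list of 12 immediate-early and inflammatory genes averaged 10.58, 10.66 and 10.69 in the miR-205 arrays and 8.04, 9.85 and 8.08 in control replicates 1, 2 and 3, so control replicate 2 was nearest the miR-205 arrays. It was also the highest control array for 128 of the 215 small RNA genes, against 6251 of all 18417 genes. In 57 of the 215, against 1899 of all genes, it lay above the other controls and below all miR-205 arrays. Without that array the count of rises was larger in each of the 4 classes, as given below.

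With the miR-205 mimic, small RNA genes were more often higher in the AGO2 immunoprecipitate than lower, and the U RNAs moved most. Of the 215 genes, 67 rose and 7 fell in a limma fit over all 18417 genes (adjusted p under 0.05), and 141 did not pass. Over all genes 12.6% rose and 14% fell, or 26.6% in either direction. The median log2 difference, miR-205 mimic minus negative control mimic, was 0.21 for the small RNA genes and -0.02 for all genes. By class, 17 of 23 U RNAs, 33 of 115 C/D box RNAs, 15 of 61 H/ACA box RNAs and 2 of 16 small Cajal body RNAs rose, with median differences of 0.62, 0.21, 0.16 and 0.05. Those that fell were 5 H/ACA box RNAs, 1 C/D box RNA and 1 small Cajal body RNA. No U RNA fell, also at an unadjusted limma p under 0.05. The classes were not tested against each other.

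The means of the classes by array showed the same order. The 23 U RNAs averaged 7.93, 7.96 and 8.13 in the miR-205 arrays and 7.33, 7.45 and 7.19 in the control arrays. The C/D box RNAs averaged 5.76, 5.80 and 5.77 in the miR-205 arrays and 5.44, 5.67 and 5.48 in the control arrays. In both classes the groups did not overlap. Control replicate 2 was the highest control in both, as it was in the H/ACA box and small Cajal body classes below. The H/ACA box RNAs averaged 7.03, 7.01 and 7.08 in the miR-205 arrays and 6.91, 6.95 and 6.83 in the control arrays, also without overlap. The small Cajal body RNAs overlapped, with 7.95, 8.02 and 8.04 in the miR-205 arrays and 7.93, 8.02 and 7.88 in the control arrays. All 18417 genes averaged 7.78 to 7.79 in the miR-205 arrays and 7.79 to 7.80 in the control arrays.

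**Figure D1:**
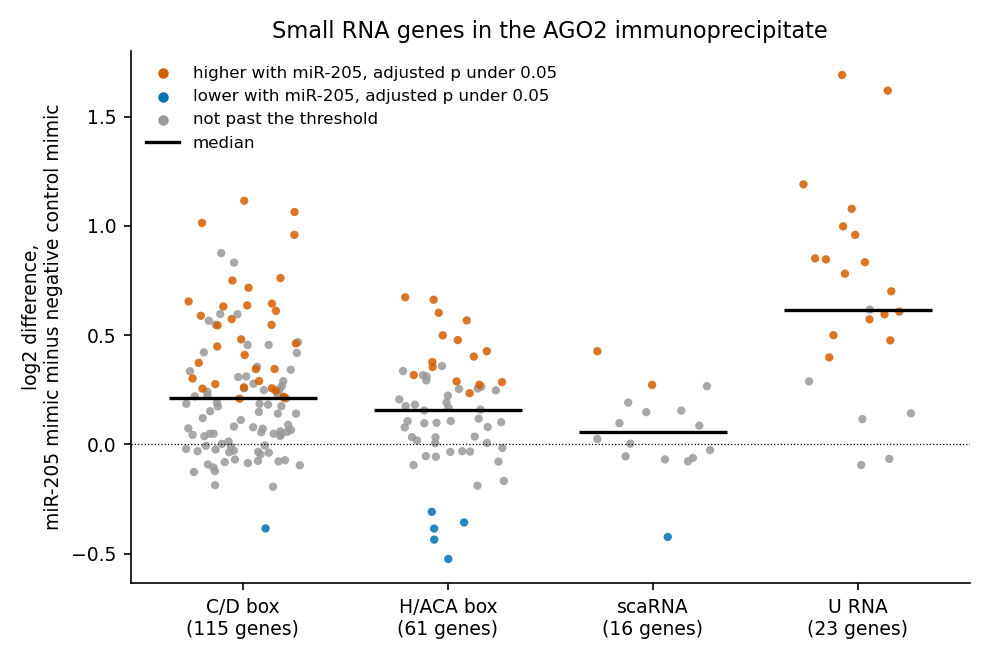
Log2 difference of each of the 215 small RNA genes, miR-205 mimic minus negative control mimic, by class; points are genes, coloured by the limma call at an adjusted p under 0.05, and black bars are class medians. The U RNA median is 0.62, and the medians of the other 3 classes lie between 0.05 and 0.21.

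Signal level differed between the classes. By the mean over all 6 arrays, 16 of 23 U RNAs, 14 of 16 small Cajal body RNAs, 39 of 61 H/ACA box RNAs and 43 of 115 C/D box RNAs lay above the dim limit of 6.04. Above it, 46 of 112 small RNA genes rose, against 15.8% of all 13591 genes above it. At or below it, 21 of 103 small RNA genes rose, against 3.46% of all 4826 such genes. The share of rises exceeded that of all genes in both ranges. Array intensities at dim signal are mostly background, which compresses differences there. Without control replicate 2, 92 of the 215 rose (14.5% of all genes did), namely 18 U RNAs, 51 C/D box, 20 H/ACA box and 3 small Cajal body RNAs.

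Most members that are U RNAs of the major spliceosome rose. The main U1 genes were not members and did not pass, as given below, and the only U6 member was a pseudogene. U5, which holds the exons together during splicing, was measured for 5 genes. RNU5D-1 had 8.68, 8.75 and 8.94 in the miR-205 arrays and 7.19, 7.65 and 6.46 in the control arrays. The groups did not overlap, and the difference of 1.69 ± 0.25 (log2 ± SE, n = 3 per group, limma adjusted p = 0.00147) was the largest of the 215 with all arrays, while without control replicate 2 it was 1.97 and that of RNVU1-3 was larger. RNU5F-1 had 5.20, 5.06 and 5.31 in the miR-205 arrays and 3.82, 4.62 and 3.56 in the control arrays, a rise of 1.19 ± 0.23 (adjusted p = 0.00535) at dim signal. RNU5B-1 rose by 0.70 and RNU5E-1 by 0.59. RNU5A-1 had 6.02, 6.87 and 6.81 in the miR-205 arrays and 6.36, 6.06 and 5.44 in the control arrays. Its groups overlapped and it did not pass (0.62 ± 0.27, adjusted p = 0.125), though it passed without miR-205 replicate 1 (0.89, adjusted p = 0.0314, range over 15 alternatives 0.0314 to 0.359).

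U4, which pairs with U6 and releases it on activation, had both of its genes higher. RNU4-1 had 10.48, 10.10 and 9.96 in the miR-205 arrays and 8.95, 8.9998 and 9.36 in the control arrays. RNU4-2 had 7.31, 7.29 and 7.14 in the miR-205 arrays and 6.39, 6.49 and 6.52 in the control arrays. Neither pair of groups overlapped, control replicate 2 was not the highest control of either gene, and the differences were 1.08 ± 0.15 (adjusted p = 0.00108) and 0.78 ± 0.07 (adjusted p = 0.000146). RNU2-1, for the U2 RNA that recognises the branch site, had 13.25, 13.27 and 13.43 in the miR-205 arrays and 12.73, 12.81 and 12.70 in the control arrays, a rise of 0.57 ± 0.07 (adjusted p = 0.000581). Its 11 probe sets gave differences of 0.57 to 0.64, but held only 3 distinct sets of values, and copies of U2 in tandem cannot be told apart by them.

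The RNVU1 genes are variants of U1, the RNA that recognises the 5′ splice site, and 7 of the 8 measured rose. RNVU1-3 had 6.73, 6.93 and 7.002 in the miR-205 arrays and 4.75, 6.21 and 4.85 in control replicates 1, 2 and 3. It rose by 1.62 ± 0.33 (adjusted p = 0.00724), and the control value of replicate 2 lay well above the other controls: without that array the difference was 2.09 ± 0.09 (adjusted p = 4.96e-06, range over 15 alternatives 4.96e-06 to 0.0612). RNVU1-6 had 9.07, 9.26 and 9.61 in the miR-205 arrays and 8.21, 8.57 and 8.17 in the control arrays, without overlap, and rose by 1.00 ± 0.15 (adjusted p = 0.00164). The other rises were 0.96 in RNVU1-15, 0.85 in RNVU1-19, 0.61 in RNVU1-4, 0.50 in RNVU1-1 and 0.40 in RNVU1-17. Among these rises, RNVU1-4 and RNVU1-17 were at dim signal. RNVU1-8 was also dim and did not pass, with 0.14 ± 0.10 (adjusted p = 0.338). Control replicate 2 was the highest control in 7 of the 8.

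These variants are close in sequence to each other and to the main U1 genes, so signal may be shared among them. The main U1 genes were on 9 probe sets that carry several symbols and so were not members. Their median was 12.48, 12.60 and 12.76 in the miR-205 arrays and 12.20, 11.97 and 12.43 in the control arrays. The groups did not overlap on any of the 9, which held 3 distinct sets of values, and here control replicate 2 was the lowest control. The median difference was 0.42, with 0 of 9 past the threshold in the limma fit over all 33297 probe sets, where 7.44% rose, and 7 of 9 at an unadjusted p under 0.05.

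The minor spliceosome removes a rare class of introns and has its own U RNAs, of which 3 of 4 rose. RNU4ATAC, the counterpart of U4, had 11.21, 11.27 and 11.52 in the miR-205 arrays and 10.50, 10.75 and 10.21 in the control arrays, a rise of 0.85 ± 0.13 (adjusted p = 0.00228). RNU11, the counterpart of U1, had 8.89, 8.69 and 9.12 in the miR-205 arrays and 8.14, 8.08 and 7.98 in the control arrays, a rise of 0.83 ± 0.11 (adjusted p = 0.00074). Both genes had groups that did not overlap. RNU6ATAC rose by 0.48 ± 0.08 (adjusted p = 0.00325). RNU12, the counterpart of U2, had 7.12, 7.14 and 7.39 in the miR-205 arrays and 6.87, 7.10 and 6.83 in the control arrays, and its 0.29 ± 0.10 missed the threshold (adjusted p = 0.0609, range over 15 alternatives 0.0159 to 0.187).

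The remaining 3 U RNA members are not spliceosomal RNAs by annotation. RNU105B and RNU105C are annotated as small nucleolar RNAs and RNU6-501P as a pseudogene of U6. None of the 3 passed in the fit of all arrays, with differences of -0.07, 0.11 and -0.09, and all were below the dim limit. Without control replicate 2, RNU6-501P was lower by limma (-0.33, adjusted p = 0.00557). Of the 20 members annotated as small nuclear RNA, 17 rose and their median difference was 0.74. The groups did not overlap in 18 of the 20, all higher with miR-205. Over all genes, 42.2% had groups apart and 19.9% had them apart in that direction.

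**Figure D2:**
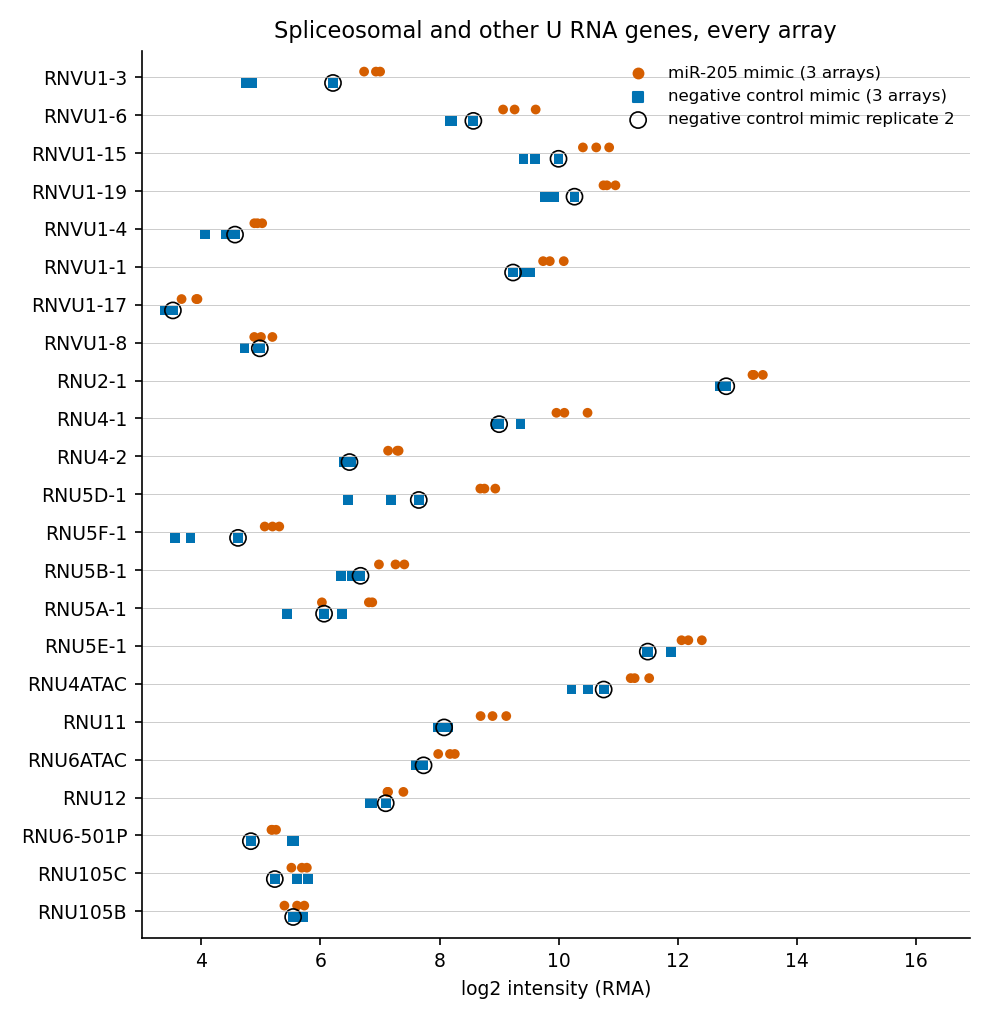
Log2 intensity of the 23 U RNA genes on every array, with miR-205 mimic arrays (circles) above negative control mimic arrays (squares) and control replicate 2 ringed; genes are ordered by family and by difference. The groups do not overlap in 18 of the 23 genes, and all 18 are higher with miR-205.

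C/D box RNAs rose in 33 of 115 cases and fell in 1 (28.7% and 0.87%, against 12.6% and 14% of all genes). Outside the 4 imprinted families SNORD113 to SNORD116, 26 of 69 rose and 1 fell (37.7% and 1.45%), with a median difference of 0.30. Signal was at or below the dim limit for 15 of the 33 rises and for 11 of the 26. The count of 33 depended on the arrays: it was 21, 19 and 21 without miR-205 replicates 1, 2 and 3, and 17, 51 and 21 without control replicates 1, 2 and 3. Of the 33, 29 also rose without control replicate 2.

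GAS5, a noncoding RNA gene, holds 7 of the measured C/D box RNAs in its introns. Of the 7, 6 rose (85.7%, against 12.6% of all genes), 3 of them at dim signal. SNORD75 had 6.75, 6.64 and 6.25 in the miR-205 arrays and 5.33, 5.91 and 5.06 in the control arrays, a rise of 1.11 ± 0.21 (adjusted p = 0.00472) with a mean just under the dim limit. SNORD44, which is widely used as a reference RNA in microRNA assays, had 6.44, 6.77 and 6.41 in the miR-205 arrays and 5.88, 5.93 and 5.67 in the control arrays, a rise of 0.72 ± 0.11 (adjusted p = 0.00188). SNORD74 had 9.62, 9.54 and 9.29 in the miR-205 arrays and 8.79, 9.17 and 8.54 in the control arrays, a rise of 0.65 ± 0.15 (adjusted p = 0.0124). The groups did not overlap in any of the 3. SNORD79, SNORD81 and SNORD77 rose by 0.63, 0.57 and 0.29, and SNORD78 did not pass (0.87 ± 0.33, adjusted p = 0.0851). SNORD79, SNORD77 and SNORD78 had means of 5.57, 3.26 and 5.98, below the dim limit. Without control replicate 2, SNORD78 passed (1.27, limma adjusted p = 0.00285). Control replicate 2 was the highest control in all 7.

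Several further rises were in RNAs of noncoding or ribosomal protein hosts. SNORD28, from SNHG1, had 8.56, 8.57 and 8.55 in the miR-205 arrays and 7.72, 8.05 and 7.67 in the control arrays, a rise of 0.75 ± 0.10 (adjusted p = 0.000874). SNORD15A, from the ribosomal protein gene RPS3, had 7.93, 7.90 and 8.15 in the miR-205 arrays and 6.81, 7.48 and 6.81 in the control arrays, a rise of 0.96 ± 0.17 (adjusted p = 0.00374). In both, all miR-205 arrays lay above all control arrays. SNORD58A, from RPL17, had 6.38, 6.43 and 6.63 in the miR-205 arrays and 5.16, 6.04 and 5.06 in the control arrays, a rise of 1.06 ± 0.22 (adjusted p = 0.00865) at dim signal. SNORD12C, from ZFAS1, had 7.14, 7.29 and 6.88 in the miR-205 arrays and 5.47, 6.81 and 5.99 in the control arrays. Its groups were apart by a small gap, because control replicate 2 was high, and the 1.01 ± 0.28 (adjusted p = 0.0287) had the widest error of the named rises in this class and did not pass in 6 of 15 alternatives (adjusted p up to 0.121).

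Further hosts with at least 3 measured small RNAs had fewer rises past the threshold with all arrays. The ribosomal protein gene RPL13A held 4 C/D box RNAs, of which 1 rose, SNORD33 by 0.26. RABGGTB, RPL23A, RPL3, NCL and SNHG17 each held 3 small RNAs, of which 1 rose, and of the 3 in TBRG4 none rose and 1 fell. SNORD45C, within RABGGTB, rose by 0.64 and SNORD4A, within RPL23A, by 0.54, and the arrays of SNORD4A overlapped between the groups. The median differences in RABGGTB and RPL23A were 0.60 and 0.54, against 0.65 in GAS5. Without control replicate 2, all the small RNAs of RABGGTB and RPL23A passed as higher, while SNORD33 did not pass (0.25, limma adjusted p = 0.0551).

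SNORD41, from the importin gene TNPO2, was the C/D box RNA that fell. It had 10.30, 10.42 and 10.27 in the miR-205 arrays and 10.69, 10.85 and 10.60 in the control arrays, a difference of -0.39 ± 0.08 (adjusted p = 0.00754) with no overlap. SNORD13, the U13 RNA that acts in processing of the small ribosomal subunit RNA, was bright, with 12.50, 12.58 and 12.45 in the miR-205 arrays and 12.29, 12.36 and 12.23 in the control arrays. It rose by 0.22 ± 0.07 (adjusted p = 0.0376), and its copy SNORD13P3, annotated as a pseudogene, by 0.25, though the pair may share signal. SNORD13 was no longer past the threshold in 6 of 15 alternatives (adjusted p up to 0.143).

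The imprinted families are arrays of near-identical C/D box RNAs, and they differed in signal. The 20 SNORD115 genes, studied for their effect on splicing of a serotonin receptor RNA, had mean signals of 2.33 to 3.65, all dim. By limma 0 of the 20 passed, also at an unadjusted p under 0.05. The 6 measured SNORD113 and SNORD114 genes, within MEG8, were also all dim, with 0 of 6 past either threshold. Of the 20 SNORD116 genes, whose loss is part of Prader-Willi syndrome, 9 were above the dim limit with means up to 12.82, and 7 rose. SNORD116-13 had 4.80, 5.56 and 5.53 in the miR-205 arrays and 4.56, 4.77 and 4.27 in the control arrays, a rise of 0.76 ± 0.20 (adjusted p = 0.0235) at dim signal, and did not pass in 5 of 14 alternatives. Among the 9 above the limit, 3 rose and the median difference was 0.19.

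H/ACA box RNAs rose in 15 of 61 cases and fell in 5. The falls were 8.2% of the class, against 14% of all genes, and the rises 24.6%, against 12.6% of all genes. The 15 became 7 without miR-205 replicate 3 and 9 without control replicate 3. SNORA24, from SNHG8, had 8.44, 8.30 and 8.33 in the miR-205 arrays and 7.86, 7.50 and 7.69 in the control arrays. It rose by 0.67 ± 0.09 (adjusted p = 0.00108), with no overlap, and control replicate 2 was its lowest control. SNORA33, from RPS12, had 6.004, 6.01 and 6.27 in the miR-205 arrays and 5.32, 5.65 and 5.32 in the control arrays, a rise of 0.66 ± 0.11 (adjusted p = 0.00288) at dim signal. Probe sets that name SNORA33 with RPS12 and with SNORD101 differed by 0.40 and 0.37. In the limma fit over all probe sets the one with RPS12 passed (adjusted p = 0.0299) and the one with SNORD101 did not (adjusted p = 0.119). SNORA21, from RPL23, had 7.65, 7.64 and 7.86 in the miR-205 arrays and 7.09, 7.33 and 6.93 in the control arrays, a rise of 0.60 ± 0.11 (adjusted p = 0.00374). SNORA13, SNORA27 and SNORA74A rose by 0.57, 0.50 and 0.48, and in 5 and 3 of 15 alternatives SNORA27 and SNORA74A did not pass.

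The H/ACA box falls ran from -0.31 to -0.53 on the log2 scale. SNORA5A, from TBRG4, had 6.03, 6.25 and 6.22 in the miR-205 arrays and 6.52, 6.71 and 6.59 in the control arrays, a difference of -0.44 ± 0.08 (adjusted p = 0.00443) with no overlap. SNORA36C, from the kinase gene AAK1, had 5.22, 4.91 and 5.31 in the miR-205 arrays and 5.93, 5.39 and 5.69 in the control arrays, a difference of -0.53 ± 0.14 (adjusted p = 0.0262) at dim signal, and did not pass in 5 of 14 alternatives. SNORA7B had -0.39 ± 0.12 (adjusted p = 0.044), and was no longer past the threshold in 7 of 15 alternatives.

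Of the 16 small Cajal body RNAs, 2 rose and 1 fell (12.5% and 6.25%, against 12.6% and 14% of all genes). The share of rises was thus near that of all genes. SCARNA9L, from the X-linked gene EIF1AX, had 8.99, 9.10 and 9.09 in the miR-205 arrays and 8.65, 8.82 and 8.43 in the control arrays, a rise of 0.43 ± 0.10 (adjusted p = 0.0124). It did not pass with the mean of its probe sets (0.24, adjusted p = 0.102), since its other probe set differed by 0.05 and its groups overlapped there. SCARNA7, from the importin gene KPNA4, rose by 0.27 ± 0.08 (adjusted p = 0.029), but did not pass in 6 of 15 alternatives (adjusted p up to 0.0924). SCARNA8, from HAUS6, had 6.59, 6.59 and 6.85 in the miR-205 arrays and 7.01, 7.24 and 7.06 in the control arrays, a difference of -0.42 ± 0.09 (adjusted p = 0.00961) with no overlap. SCARNA10 did not pass, with 7.68, 7.65 and 7.76 in the miR-205 arrays and 7.61, 7.69 and 7.35 in the control arrays (0.15 ± 0.09, adjusted p = 0.282).

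**Figure D3:**
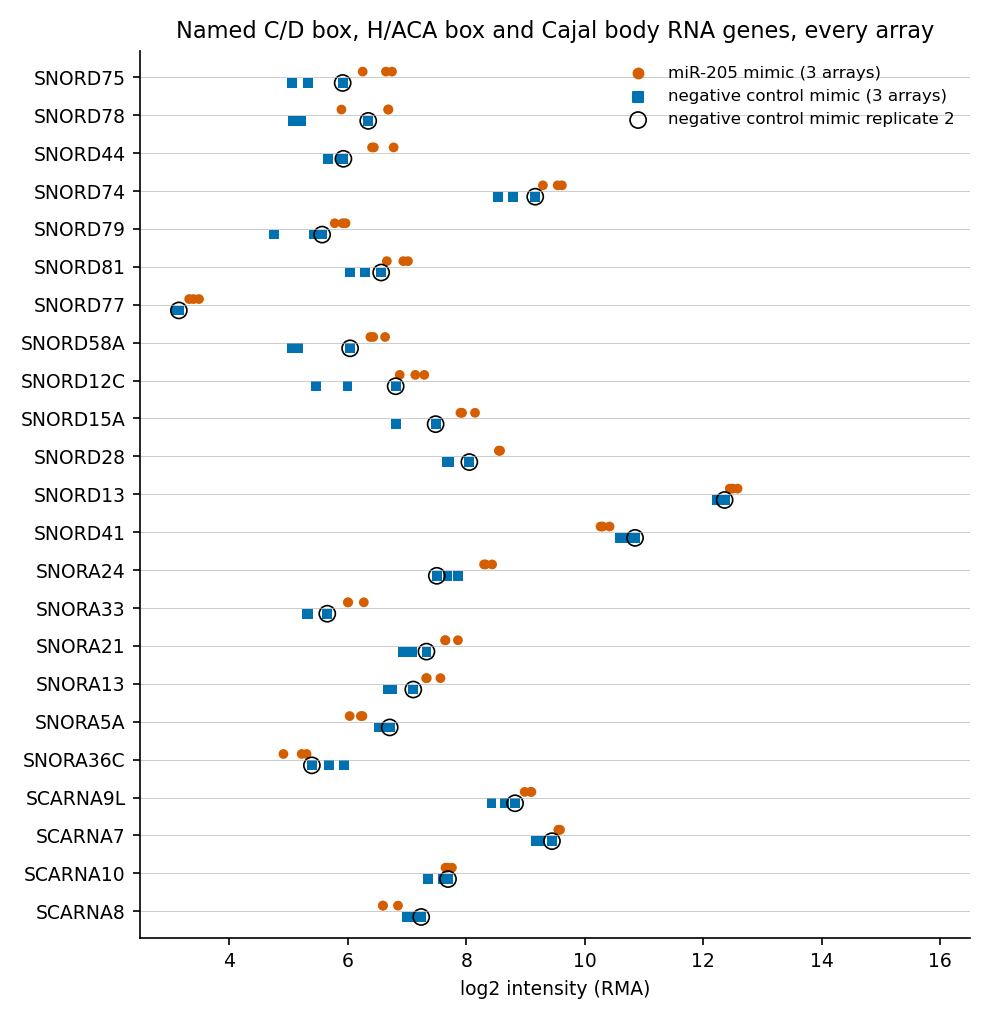
Log2 intensity on every array of the 7 C/D box RNAs within GAS5 and of named C/D box, H/ACA box and small Cajal body RNAs, with miR-205 mimic arrays (circles) above negative control mimic arrays (squares) and control replicate 2 ringed. In the GAS5 group control replicate 2 is the highest control for all 7 genes, and SNORD41, SNORA5A, SNORA36C and SCARNA8 lie lower with miR-205.

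Host genes were compared because a small RNA and its host transcript can share transcription. U RNAs were left out of this comparison. A single named gene spanned 182 of the 192 other small RNAs in the RefSeq annotation (GRCh38.p14), and for 92 of them that host was itself measured, 70 hosts in all. Of the 21 small RNAs among these that rose, the host rose for 1, did not pass for 19 and fell for 1. For small RNAs that did not pass, the host rose for 10, did not pass for 43 and fell for 11. Over all genes 12.6% rose and 14% fell. The host that rose was RPL17, with 0.34 ± 0.08 (adjusted p = 0.0142) against 1.06 for SNORD58A. The host that fell was the importin gene IPO7, with -0.43 ± 0.06 (adjusted p = 0.00118) against 0.32 for SNORA23. RPS3 and ZFAS1 differed by 0.13 and 0.12 and did not pass. Whole-gene probe sets may include the intronic small RNA, so the values of a pair need not be independent.

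For the 7 small RNAs that fell, the host fell for 3 and did not pass for 4, while 13 of all 70 hosts fell. HAUS6 fell by 0.42, as SCARNA8 did, with adjusted p = 0.00209. TNPO2, the host of SNORD41, had -0.27 ± 0.08 (adjusted p = 0.0278), and CNOT1, the host of SNORA50A, had -0.37 ± 0.07 (adjusted p = 0.00662). Across the 92 pairs, which share arrays and in part hosts, Pearson's r was 0.19 and Spearman's rho 0.23. The small RNA had the more positive difference in 67 of the 92. GAS5, SNHG1, SNHG14 and MEG8 were not among the measured hosts.

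**Figure D4:**
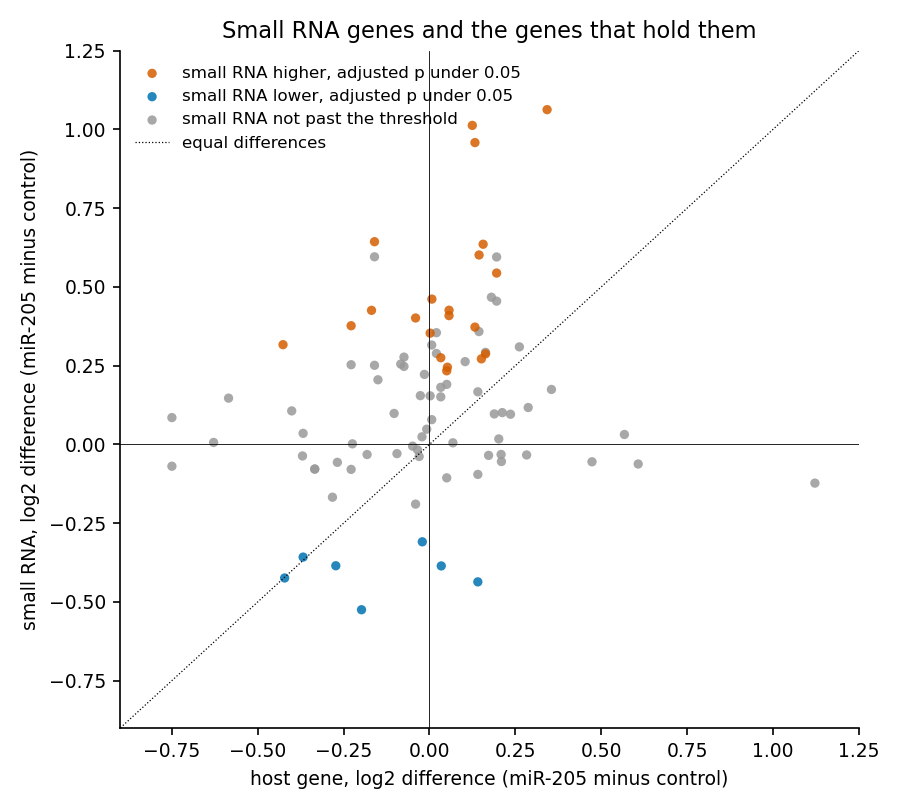
Log2 difference of 92 small RNA genes (vertical) against that of the host gene that spans each (horizontal), both miR-205 mimic minus negative control mimic; the dotted line marks equal differences and colours give the limma call of the small RNA. Of the 92 points, 67 lie above the line.

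Host genes of small nucleolar RNAs are known for starting in a run of pyrimidines, as ribosomal protein genes do. Annotated starts were available for 70 of the 85 genes that hold C/D or H/ACA box RNAs. These 70 are not the same set as the 70 measured hosts above. A run here meant at least 5 letters, all C or T, that cover the annotated first base on the gene's own strand. Such a run was found for 28 of these 70 hosts (40%). It was found for 9.8% of all 27305 genes of the same table. Hosts with a small RNA that rose had it in 12 of 25 cases (48%), and the other hosts in 16 of 45 (35.6%), which is a description with no test. The starts of 4 noncoding hosts named above are shown from 15 bases before to 15 from the annotated start, with the run in capitals (RefSeq, GRCh38.p14). SNHG1 holds SNORD28, ZFAS1 holds SNORD12C and SNHG8 holds SNORA24, and GAS5 is shown because no such run covers the annotated start used. A single start was read for each gene, so a run at another start of GAS5, or of any other host, would be missed.
SNHG1, chr11:62855871-62855900, minus strand: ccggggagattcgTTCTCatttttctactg
ZFAS1, chr20:49278627-49278656, plus strand: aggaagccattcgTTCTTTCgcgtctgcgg
SNHG8, chr4:118278747-118278776, plus strand: aaggcctcggCCTTTCacattcgggaagcg
GAS5, chr1:173869031-173869060, minus strand: tgccatcatgaattcagatgtgtttatttt

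The mRNAs of proteins that make, bind or trim these RNAs were also in the immunoprecipitate, and they did not move as 1 group. Of 16 Sm and LSm genes, whose products form the rings on the U RNAs, 7 rose and 0 fell (1 was lower at an unadjusted limma p under 0.05), with a median difference of 0.18. The rises were 43.8% of the list, against 12.6% of all genes. SNRPD1, an Sm protein, had 10.36, 10.47 and 10.35 in the miR-205 arrays and 9.53, 9.47 and 9.39 in the control arrays, a rise of 0.93 ± 0.07 (adjusted p = 5.07e-05). SNRPF, another Sm protein, rose by 0.53 and SNRPD2 by 0.26. Of 33 genes for proteins particular to single U particles, 3 rose and 8 fell (9.09% and 24.2%, against 12.6% and 14% of all genes), among them PRPF4 of the U4/U6 particle (-0.50) and SNRPB2 of the U2 particle (-0.49), while SNRNP25 of the U11/U12 particle rose by 0.42.

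Of the 3 measured genes of the C/D core and U3 list, NOP58, a core protein, rose by 0.26, RRP9, a U3 protein, rose by 0.21, and the methyltransferase gene FBL did not pass (0.04). Of the 4 H/ACA core genes, NOP10 rose by 0.20 and GAR1 fell by 0.26. Of 23 assembly and Cajal body genes, 4 rose and 3 fell (17.4% and 13%, near the shares of all genes), with GEMIN4 at -0.51, the export adaptor PHAX at -0.38 and the chaperone cofactor RPAP3 at 0.31. Over all genes, 12.6% rose and 14% fell, and with lists this short the counts are a description only.

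Of 22 genes for transcription and 3′ end formation of small RNAs, 6 rose and 2 fell (27.3% and 9.09%, against 12.6% and 14% of all genes). ZC3H8, of the little elongation complex, rose by 0.57. Genes of the Integrator complex went both ways. INTS13, INTS8, INTS6 and INTS12 rose by 0.45, 0.36, 0.33 and 0.32, while INTS2 (-0.67) and INTS14 (-0.26) fell. The other measured Integrator genes did not pass. Of 20 genes for trimming and decay, 6 rose and 1 fell (30% and 5%, against the same shares of all genes). PARN, the deadenylase that trims H/ACA box RNAs, had 10.22, 10.14 and 10.04 in the miR-205 arrays and 9.29, 9.14 and 9.37 in the control arrays, a rise of 0.86 ± 0.08 (adjusted p = 0.000151). USB1, the U6 end-trimming enzyme, rose by 0.46 and the exosome gene EXOSC2 by 0.45.

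Of 9 microRNA processing genes, 6 fell (66.7%, against 14% of all genes) and 0 rose, also at an unadjusted limma p under 0.05. AGO2, the precipitated protein, had an mRNA signal of 11.42, 11.52 and 11.42 in the miR-205 arrays and 12.18, 12.04 and 12.32 in the control arrays, a difference of -0.73 ± 0.08 (adjusted p = 0.000392). DICER1 and AGO1 fell by 0.42 and 0.37. These are levels of mRNA in the precipitate, and the amount of AGO2 protein recovered on each array was not measured here, so its part in the rises of the small RNAs was not tested.

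**Figure D5:**
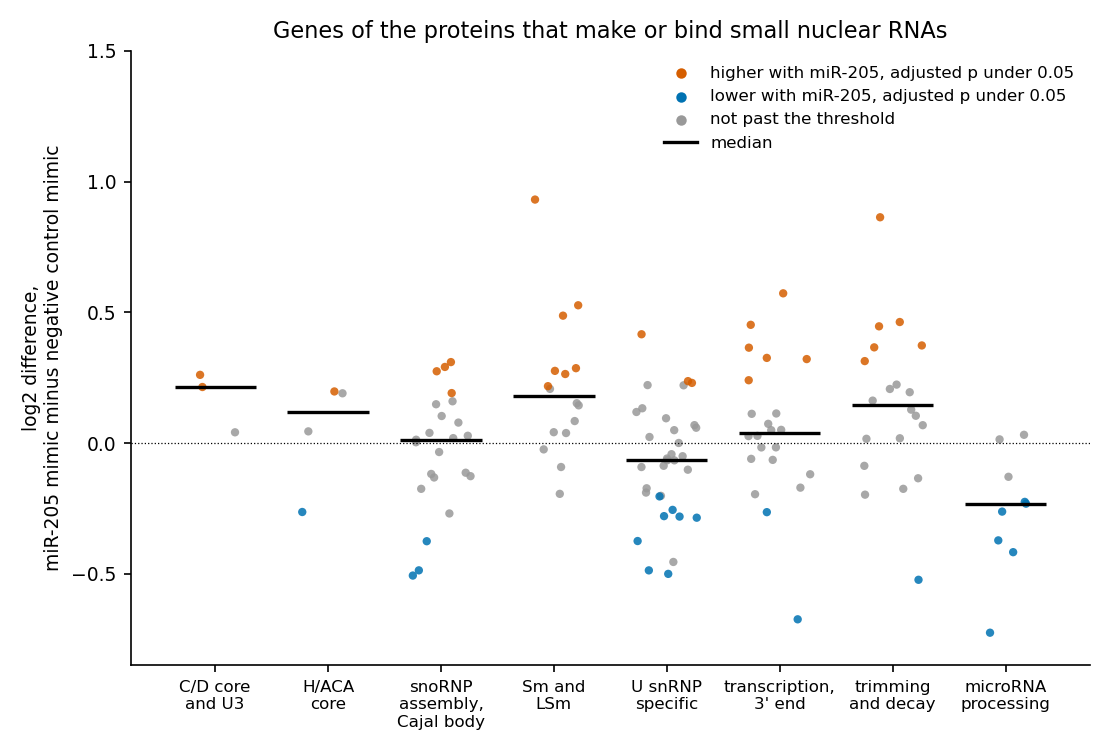
Log2 difference, miR-205 mimic minus negative control mimic, of measured genes in 8 lists of proteins that make, bind or process small RNAs; points are genes coloured by the limma call, and black bars are list medians. The Sm and LSm list holds 7 rises and 0 falls, and the microRNA processing list 6 falls and 0 rises.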

How the data were processed

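RNA from AGO2 immunoprecipitates of PC3 cells was measured on 6 gene arrays, 3 per mimic. The authors deposited log2 intensities, which the submitters' processing notes credit to RMA and to Affymetrix Expression Console 1.1.2, and these were used as they stood. RMA evens out the distributions of the arrays, so a difference is relative to the rest of the same array. Precision is limited by having 3 arrays a group. Of 33297 probe sets, 19460 carried 1 gene symbol, and each gene kept its probe set of highest mean signal (18417 genes). The test was limma's moderated test (version 3.58.1, R 4.3.3), fitted with group as the only term. It was two-sided, and p-values were adjusted by Benjamini and Hochberg's method across the 18417 genes, with 0.05 as the limit. Every adjusted p in the text is from limma. Probe sets with several symbols were tested in a fit over all 33297.

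A host was the single named RefSeq gene whose span held the small RNA, and none was sought for U RNAs. Strand was not checked, although the plan asked for the same strand, because the table used gives none. The members and all lists were chosen with earlier results of these data known. Named were the members with the largest rise or fall in each class, among those past the threshold with groups apart, and a fixed set whatever its values. That set held SNORD13, SCARNA10, RNU and RNVU1 genes, and its other names had no probe set of their own. For each list, up to 3 genes with the smallest p were named. FBL, further Integrator genes and a few members named for their host were added after their values were seen. Alternatives covered normalization, the trend with signal, a filter on dim genes, summaries of probe sets, variance models, array weights, a block for replicate number and each array left out in turn. The steps were tested on simulated data. A result for 1 host gene is not reported here.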

Additional observations from a re-analysis of the deposited data

Results flagged for a closer look

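Of the 85 probe sets that name a small RNA among several symbols, none was in the counts by class. By limma 0 passed among 8 of SNORD115 copies, 9 of SNORD116 copies, 9 of U1 copies and 9 of further small RNA copies, with 0, 2, 7 and 1 at an unadjusted p under 0.05, and rises were found in the families below. The 5 probe sets of the U3 copies (SNORD3), the C/D box RNA that acts in the first cuts of ribosomal RNA, had 1 set of values among them: 11.15, 11.14 and 11.60 in the miR-205 arrays and 10.22, 10.26 and 10.30 in the control arrays. The difference was 1.03 ± 0.13 (log2 ± SE, limma adjusted p = 0.00411 over all probe sets, where 7.44% rose), the groups did not overlap, and control replicate 2 did not stand apart.

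The 45 probe sets that name a small RNA together with its host or a neighbour had a median difference of 0.32, and 14 of the 45 rose while 0 fell. The probe set naming SNHG12 with SNORA16A, SNORA61 and SNORA44 had 9.08, 9.06 and 9.09 in the miR-205 arrays and 7.84, 8.46 and 7.88 in the control arrays, a rise of 1.02 ± 0.16 (adjusted p = 0.00935). The part of host and small RNA in such a value was not tested.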

How the results depend on the processing

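Of the 41 named genes, 37 passed the threshold, and 27 of these did so in every one of the 15 alternatives in which they were tested, while 0 changed direction. U RNA rises ranged from 15 of the genes kept above the dim limit to 18. With all 33297 probe sets in the test, which tests more features, 41 small RNA genes rose, of them 16 C/D box, 7 H/ACA box and 1 small Cajal body RNAs, and 3 H/ACA box RNAs fell. With only genes above the dim limit tested, which leaves fewer members, 19 C/D box RNAs rose and 3 H/ACA box RNAs fell. With the mean of a gene's probe sets, 1 small Cajal body RNA rose. Leaving out each array in turn gave 1588 to 2668 rises and 1777 to 2881 falls over all genes, 45 to 92 small RNA rises and 5 to 8 falls, 17 to 51 C/D box rises and 1 to 2 falls, 7 to 20 H/ACA box rises and 3 to 5 falls, 1 to 3 small Cajal body rises, 17 to 18 U RNA rises and 0 to 1 U RNA falls. Deviations from the group means of same-numbered arrays correlated at 0.06, 0.09 and 0.01, and those of differently numbered arrays at -0.09 to 0.05. Such small values do not settle whether the replicate numbers pair the arrays. With the replicate number as a block, 76 small RNA genes rose and 6 fell, of them 40, 17, 2 and 17 rises for C/D box, H/ACA box, small Cajal body and U RNAs. Dim signal limits 103 of the 215 members, among them all SNORD113, SNORD114 and SNORD115 genes. Why the counts moved when single arrays were left out was not tested.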
